A study of Mus musculus with 6 samples.

Results

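Imprinted genes were followed through bulk RNA-seq of basal keratinocytes, the proliferating inner layer of the epidermis, sorted from dorsal skin of E16.5 mouse embryos. The 40 genes were a named list of imprinted genes, taken by matching each symbol to its Ensembl identifier in the raw count table, and all 40 were found among 55536 listed genes. Of these, 38 passed the low-count filter and were tested among 20622 genes. The 3 Ctrl embryos were Suv39h1 f/f, Suv39h2-/-, Setdb1 f/f without the K14CreERT2 transgene, and the 3 TKO embryos carried the same alleles with K14CreERT2. Tamoxifen was given to the mothers of both groups, so the germline loss of Suv39h2 was common to all 6 embryos, and the groups differed in the Cre that removes the floxed Suv39h1 and Setdb1 alleles. The Cre is driven by the keratin 14 promoter of basal keratinocytes, and the study described its targeting in this line as often incomplete, leaving mosaic skin. Cells were collected as Epcam+ α6+ into lysis reagent. Replicate 1 of Ctrl and replicate 2 of TKO were female and the other embryos male. The libraries held 102159175, 136515436 and 104422632 counts in Ctrl and 116308383, 108957256 and 118413082 counts in TKO.

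Imprinted genes are expressed mainly from a single parental allele. Most lie in clusters under a control region whose DNA methylation is set on the egg or the sperm genome and kept through development, and within a cluster some genes are expressed from the maternal and others from the paternal chromosome. On the methylated allele, KRAB zinc finger proteins such as ZFP57 recruit TRIM28 and SETDB1, which places H3K9me3, while SUV39H1 and SUV39H2 place the same mark mainly at pericentromeric repeats. Many imprinted genes act on fetal growth. The counts did not separate the parental alleles, so every value below is the sum of both.

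The targeted genes were examined first. Setdb1, the H3K9 methyltransferase of the control regions, was at 125, 118 and 121 CPM (counts scaled to the size of the library) in the 3 Ctrl libraries and at 95.2, 62.2 and 74.8 CPM in the 3 TKO libraries. No TKO library reached the Ctrl range, with a log2 fold change of -0.65 ± 0.161 (SE, n = 3 per group), an unadjusted p of 0.00253 and an adjusted p of 0.286 by edgeR's quasi-likelihood test. For Setdb1 the adjusted p was 0.0449 by DESeq2 on the same genes, 0.0545 in its default workflow and 0.00498 by edgeR without a low-count filter. Suv39h1 was at 88.6, 78.5 and 84 CPM in Ctrl and at 75.5, 68.9 and 89.4 CPM in TKO, and the groups overlapped. Suv39h2, deleted in both groups, still had 15.9, 17 and 15.6 CPM in Ctrl and 18.9, 16 and 17.5 CPM in TKO. These are sums over whole genes, so reads from exons outside a deleted part are included, and Suv39h1 and Suv39h2 levels check nothing about the labels.

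Markers of the sorted layer were abundant in every library. Summed over 12 basal keratinocyte markers, the level was 26700, 26700 and 20600 CPM in Ctrl and 17700, 19700 and 21900 CPM in TKO. Krt5 led with a mean of 9430 CPM. Krt15 was the 1 marker with an unadjusted p under 0.05 by edgeR, lower in TKO, where 2.02% of all tested genes were. It was at 2710, 2580 and 2090 CPM in Ctrl and 900, 792 and 1570 CPM in TKO, a log2 fold change of -1.18. Its adjusted p was 0.185 by edgeR's quasi-likelihood test and 0.00066 by DESeq2. The 9 suprabasal markers tested summed to 19300, 19100 and 21000 CPM in Ctrl and 17100, 13000 and 13800 CPM in TKO, led by Krt1, and 2 of them, Krt1 and Krt10, were lower in TKO at an unadjusted p under 0.05, where 2.02% of all tested genes were. Markers of both keratinocyte layers exceeded those of every other cell type list in each library, although the sort was for basal cells.

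Fibroblast markers, 12 genes led by Col1a1, summed to 1750, 4430 and 3660 CPM in Ctrl and 2890, 3040 and 3340 CPM in TKO, and none was at 0 in any library. Replicate 1 of Ctrl was the lowest of the 6, and the groups overlapped. Skeletal muscle markers were scarce but separated the groups, summing to 5.76, 13.6 and 9.38 CPM in Ctrl and 37.3, 40.3 and 40.8 CPM in TKO. Of 13 muscle markers 5 were higher in TKO at an unadjusted p under 0.05, where 4.06% of all tested genes were, Ttn was the most abundant, and Myh3, an embryonic myosin heavy chain, rose by 2.61 on the log2 scale with an adjusted p of 0.0211 by edgeR's quasi-likelihood test. Pax7 and Myf5, which mark muscle progenitors, were at 0 in some libraries. The study placed muscle programs among those raised in TKO in its bulk RNA-seq and read them as release of genes of other lineages. Neither that reading nor a share of muscle cells was tested here. Endothelial markers summed to 31.1, 29.3 and 41.3 CPM in Ctrl and 28.7, 71.7 and 57.1 CPM in TKO, with Cdh5 the most abundant, and 2 of the 8 were higher in TKO at an unadjusted p under 0.05, again beside 4.06% of all tested genes.

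Immune markers, led by Csf1r, ranged from 12.1 CPM in replicate 1 of TKO to 90.9 CPM in replicate 2 of TKO, with Cd3e and Cd207 at 0 in some libraries. Melanocyte markers, led by Kit, ranged from 13.8 to 24.9 CPM, Schwann and neural markers, led by Mbp, from 55.7 to 77.4 CPM, and erythroid markers, led by Hba-a1, from 20.1 to 141 CPM. In these lists Tyrp1 was at 0 in replicate 2 of TKO, Elavl4 in replicate 1 of TKO and Hba-a2 in replicate 1 of Ctrl. Mlana was the 1 melanocyte marker of 8 with an unadjusted p under 0.05, beside 4.06% of all tested genes higher in TKO. It was higher in TKO by 3.13 on the log2 scale, with an adjusted p of 0.36 by edgeR's quasi-likelihood test and 0.0206 by DESeq2. No immune, neural or erythroid marker had an unadjusted p under 0.05 by edgeR. In bulk samples, fewer cells of a type and less RNA per cell cannot be told apart, and the part of these cells in the results below was not tested.

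The 40 genes spanned a wide range of levels in Ctrl basal cells when scaled to CPM per kilobase of exon. H19, a maternally expressed long noncoding RNA that limits growth, stood far above the rest at 1580 CPM per kilobase. Gnas, the stimulatory G protein subunit, was at 50.1, Cdkn1c, an inhibitor of cyclin-dependent kinases, at 35, Grb10, an adaptor that dampens insulin and IGF signalling, at 24.9, Igf2r, the receptor that clears IGF2, at 21.5, and Igf2, the fetal growth factor, at 20.2 CPM per kilobase. Plagl1, a zinc finger transcription factor, and Peg3, a large zinc finger protein, followed at 17.8 and 17.5 CPM per kilobase. These 8 genes include both maternally and paternally expressed members. At the other end lay Asb4, Rasgrf1 and Magel2, at 0.0882, 0.0622 and 0.0577 CPM per kilobase. The other 2 members were not tested. Kcnk9, a potassium channel, had counts of 9, 0 and 4 in Ctrl and 1, 2 and 5 in TKO. Rtl1, a gene of retrotransposon origin, had 0 counts in all 6 libraries, which allows at most 0.0232 to 0.0303 CPM per library (the level of 3 counts, for counting error only).

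**Figure D1:**
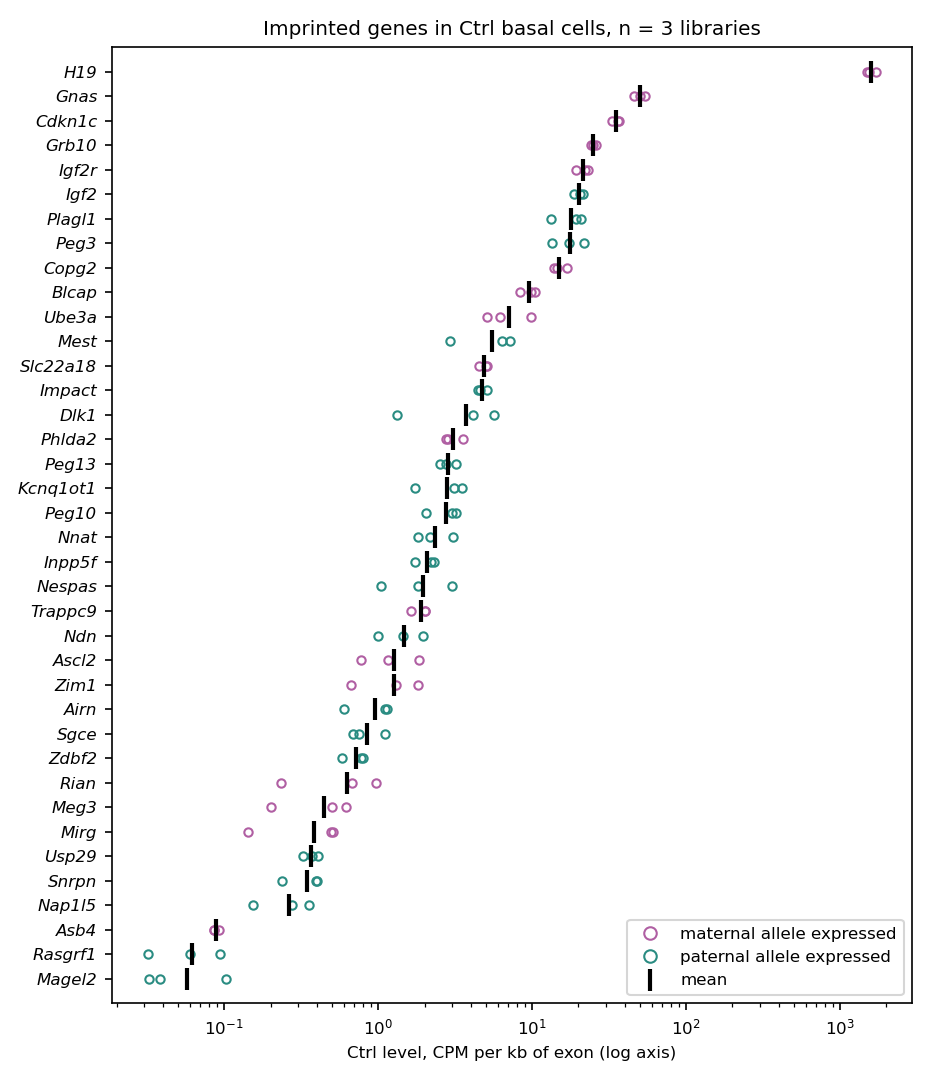
Level of the 38 tested imprinted genes in the 3 Ctrl libraries, in CPM per kilobase of exon on a log axis. Each circle is a library, coloured by the expressed parental allele, and the bar is the mean, with H19 at 1580 and Magel2 at 0.0577.

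No imprinted gene passed an adjusted p of 0.05 between TKO and Ctrl by edgeR's quasi-likelihood test, a threshold that 27 of all 20622 tested genes passed (0.131%). The smallest adjusted p among the members was 0.192, for Nnat. DESeq2 on the same genes called 1 member, again Nnat, against 1.26% of all genes. At an unadjusted p under 0.05, 8 members were higher in TKO, namely Nnat, Plagl1, Magel2, Usp29, Peg3, Phlda2, Igf2r and Zim1, where 4.06% of all tested genes were. No member was lower at that threshold, where 2.02% of all genes were. The lower count was 4 without replicate 3 of TKO and 3 without a low-count filter. Of the 38, 24 had a log2 fold change above 0, against 51.9% of all genes, and the median of the 38 was 0.13 beside 0.01 over all tested genes. This median was 0.06 without replicate 1 of Ctrl and 0.30 without replicate 2 of Ctrl. The count of 8 was sensitive to single libraries, and it was 4 with all libraries kept and sex in the model. It was 1 without replicate 1 of Ctrl, 2 without replicate 2 of TKO, 4 without replicate 3 of Ctrl and 5 without replicate 1 of TKO.

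Separation of the groups gave a like count. In 7 members every TKO library lay above every Ctrl library, namely Phlda2, Nnat, Usp29, Plagl1, Grb10, Peg10 and Magel2, against 6.35% of all genes. In no member did every TKO library lie below every Ctrl library, against 5.11% of all genes. The members named in both counts were Nnat, Plagl1, Magel2, Usp29 and Phlda2.

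**Figure D2:**
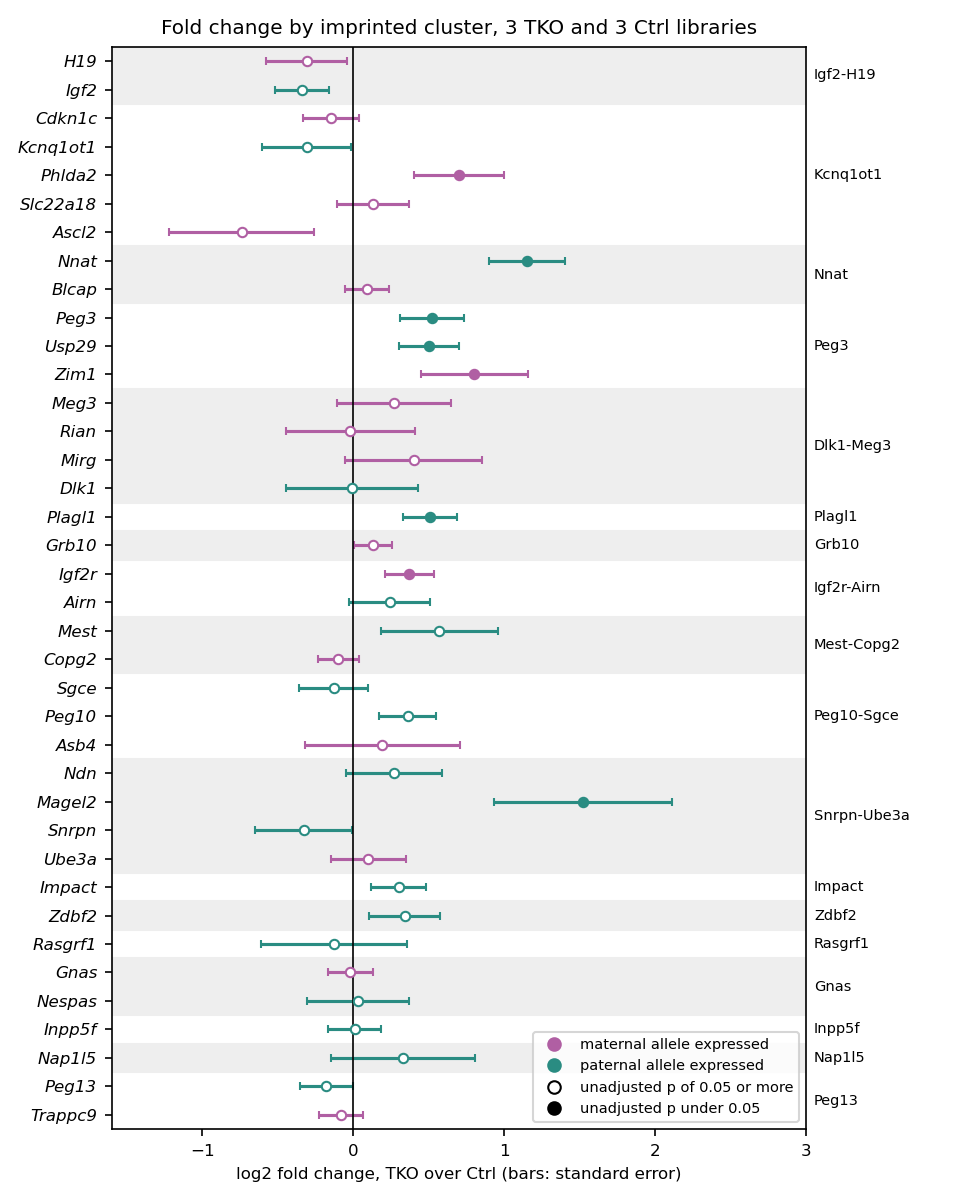
Log2 fold change of TKO over Ctrl with its standard error for the 38 tested members, grouped by imprinted cluster and coloured by expressed allele, with filled points at an unadjusted p under 0.05. The 8 filled points all lie to the right of 0, from 0.37 for Igf2r to 1.52 for Magel2.

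Nnat, neuronatin, encodes a small membrane proteolipid of the endoplasmic reticulum and is paternally expressed from chr2:157560078-157562525 (GRCm38.p6, plus strand), inside an intron of Blcap. Its level was 6.38, 4.53 and 3.77 CPM in Ctrl and 10, 12.9 and 9.78 CPM in TKO. The groups did not overlap, and the mean went from 4.9 ± 1.34 to 10.9 ± 1.73 CPM (SD, n = 3 each). The log2 fold change was 1.15 ± 0.253 (SE), with an unadjusted p of 0.00111 and an adjusted p of 0.192 by edgeR's quasi-likelihood test, and an adjusted p of 0.00138 by DESeq2. The adjusted p ran from 0.00138 to 0.819 over 15 alternative settings, while the unadjusted p stayed under 0.05 in all 15. Blcap, its maternally expressed host in brain, was at 35.6, 29.9 and 37.6 CPM in Ctrl and 35.6, 35.3 and 39.1 CPM in TKO, a log2 difference of 0.09 ± 0.144 that did not pass (unadjusted p of 0.533 by edgeR's quasi-likelihood test). The 2 genes lie on opposite strands, 6.54% of Nnat's exon length overlaps other annotated genes, and reads there cannot be assigned to a strand from what is stated of the counting.

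In the Peg3 cluster all 3 genes had an unadjusted p under 0.05. Peg3, which is paternally expressed and acts in maternal behaviour and fetal growth, was at 185, 296 and 237 CPM in Ctrl and 329, 425 and 275 CPM in TKO, with a log2 fold change of 0.52 ± 0.21. Usp29, a paternally expressed deubiquitinase gene read away from Peg3 on the other strand, was at 5.89, 6.76 and 7.3 CPM in Ctrl and 9.17, 9.74 and 9.22 CPM in TKO, a log2 fold change of 0.50 ± 0.197. Only Usp29 of the 3 had groups that did not overlap. Zim1, a maternally expressed zinc finger gene, was at 5.48, 14.8 and 10.7 CPM in Ctrl and 15.1, 25.6 and 13.5 CPM in TKO, a log2 fold change of 0.80 ± 0.354. The unadjusted p values were 0.0335, 0.031 and 0.0474 in that order, and the adjusted p values 0.754, 0.74 and 0.81, by edgeR's quasi-likelihood test. Genes known to be expressed from opposite parental alleles thus had the same direction. In Usp29, 14.8% of the exon length overlaps other annotated genes. Without replicate 1 of Ctrl, and again without replicate 2 of TKO, none of the 3 kept an unadjusted p under 0.05. With all libraries kept, the unadjusted p was above 0.05 for Peg3 (0.0506) and Zim1 (0.0685) with sex in the model, for Zim1 (0.0501) without robust estimation and for Usp29 (0.0796) without a low-count filter, all by edgeR. Leaving out replicate 2 of TKO lowered the log2 fold change to 0.34 for Peg3 and 0.46 for Zim1, and leaving out replicate 1 of Ctrl lowered that of Zim1 to 0.50.

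Plagl1, a growth-restraining zinc finger gene expressed from the paternal allele, was at 114, 179 and 164 CPM in Ctrl and 244, 208 and 201 CPM in TKO. The groups did not overlap, with a log2 fold change of 0.51 ± 0.179, an unadjusted p of 0.0169 and an adjusted p of 0.658 by edgeR's quasi-likelihood test. Magel2, a paternally expressed MAGE family gene, was low, at 0.151, 0.178 and 0.473 CPM in Ctrl and 0.484, 0.941 and 0.888 CPM in TKO. Its log2 fold change of 1.52 ± 0.588 was the largest of the members, running from 1.25 to 2.22 with a library left out, and its unadjusted p was under 0.05 in 2 of those 6 fits. The highest Ctrl library almost met the lowest TKO library. Phlda2, a maternally expressed gene that limits placental growth, was at 3.1, 3.98 and 3.19 CPM in Ctrl. In TKO it was at 4.6, 7.68 and 4.44 CPM. The log2 fold change was 0.70 ± 0.297, and replicate 2 of TKO was the highest library. Without that library it was 0.40, with an unadjusted p of 0.238 by edgeR's quasi-likelihood test. By the same test that p was 0.0649 with sex in the model. It was 0.103 without replicate 1 of Ctrl and 0.103 without replicate 3 of Ctrl. Igf2r was at 208, 180 and 217 CPM in Ctrl and 265, 305 and 213 CPM in TKO, with overlapping groups and a log2 fold change of 0.37 ± 0.162. Unadjusted p values for Magel2, Phlda2 and Igf2r were 0.0272, 0.0398 and 0.0445, and adjusted p values 0.732, 0.786 and 0.8, by edgeR's quasi-likelihood test. Without replicate 1 of Ctrl the log2 fold change of Plagl1 was 0.34, and without replicate 2 of TKO that of Igf2r was 0.24. Igf2r kept an unadjusted p under 0.05 in 7 of 15 alternative settings, the fewest of the 8, and Plagl1 in 13 of 15.

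**Figure D3:**
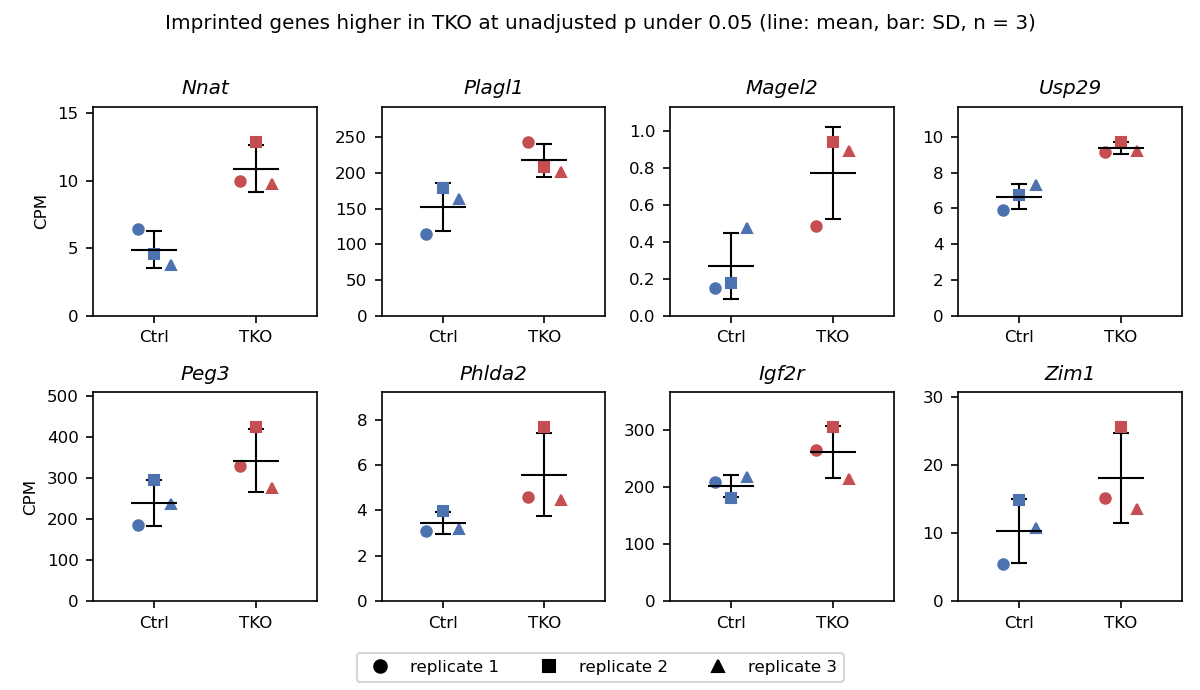
CPM in each library for the 8 imprinted genes higher in TKO at an unadjusted p under 0.05, with the mean as a line and the SD as a bar (n = 3 per group) and a marker shape for each replicate number. Nnat, Plagl1, Usp29, Magel2 and Phlda2 show groups that do not overlap, while Peg3, Zim1 and Igf2r overlap.

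Promoter windows of the Nnat, Peg3 and Plagl1 loci are shown because these loci hold 5 of the 8 genes above. Each window runs from 250 bases before to 50 after the RefSeq start site (GRCm38.p6), is written 5′ to 3′ on the strand of the gene, and carries in capitals the letters TGCCGC or its reverse complement GCGGCA, the core that ZFP57 binds when methylated. Nnat lies at chr2:157559828-157560127 on the plus strand, Peg3 at chr7:6730370-6730669 on the minus strand, Zim1 at chr7:6696383-6696682 on the minus strand and Plagl1 at chr10:13090582-13090881 on the plus strand.
Nnat: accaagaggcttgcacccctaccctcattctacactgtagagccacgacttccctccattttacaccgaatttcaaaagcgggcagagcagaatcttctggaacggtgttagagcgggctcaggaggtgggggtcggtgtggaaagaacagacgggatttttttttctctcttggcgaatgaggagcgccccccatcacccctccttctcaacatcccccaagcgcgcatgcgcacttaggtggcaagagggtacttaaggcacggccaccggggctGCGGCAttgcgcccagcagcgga
Peg3: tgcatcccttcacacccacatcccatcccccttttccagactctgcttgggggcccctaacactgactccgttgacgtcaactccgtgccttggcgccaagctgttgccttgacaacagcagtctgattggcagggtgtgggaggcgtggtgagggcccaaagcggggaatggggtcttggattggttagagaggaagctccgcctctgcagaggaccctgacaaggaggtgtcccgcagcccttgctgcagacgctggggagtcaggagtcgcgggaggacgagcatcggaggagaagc
Zim1: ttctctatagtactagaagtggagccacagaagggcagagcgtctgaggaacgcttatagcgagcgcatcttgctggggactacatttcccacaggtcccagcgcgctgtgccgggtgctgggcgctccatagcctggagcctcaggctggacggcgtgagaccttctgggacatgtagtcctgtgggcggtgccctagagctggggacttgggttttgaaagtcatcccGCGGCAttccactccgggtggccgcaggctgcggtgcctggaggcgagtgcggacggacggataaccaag
Plagl1: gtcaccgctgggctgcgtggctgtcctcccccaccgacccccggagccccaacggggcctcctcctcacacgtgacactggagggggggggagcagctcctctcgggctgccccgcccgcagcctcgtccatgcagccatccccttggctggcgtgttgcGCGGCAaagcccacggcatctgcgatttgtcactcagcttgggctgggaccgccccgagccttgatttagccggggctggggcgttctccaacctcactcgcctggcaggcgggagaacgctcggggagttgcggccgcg

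The Nnat, Zim1 and Plagl1 windows each held the core 1 time, starting at position 28 after the start site in Nnat, 20 bases before it in Zim1 and 90 bases before it in Plagl1, and the Peg3 window did not hold these letters. The windows of Usp29, Phlda2, Igf2r and Magel2, not printed, did not hold them either, so the core was found for 3 of the 8 genes. The windows held 17, 13, 20 and 26 CpG dinucleotides in the order printed. Peg3 and Usp29 start back to back, so that their windows shared 263 bases on opposite strands. RefSeq promoters were found for 30 of the 40 members, 45 windows in all, and 12 of them (26.7%) held the core on either strand, beside 3813 of 32851 windows of all genes (11.6%). These shares are over windows, and windows of a gene can overlap, as in Mest, where the same core sites were counted again. The 2 sets were not matched for CpG or GC content, and the difference between the shares was not tested. A match in these letters is a description of the window and says nothing of binding in these cells.

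At the Igf2-H19 cluster both genes had negative log2 fold changes without passing the test. H19 was at 4850, 4410 and 4250 CPM in Ctrl and 2560, 2890 and 5450 CPM in TKO, and Igf2 was at 116, 126 and 131 CPM in Ctrl and 82.4, 84.8 and 127 CPM in TKO. In both genes replicates 1 and 2 of TKO lay below all Ctrl libraries and replicate 3 did not. The log2 fold changes were -0.31 ± 0.266 for H19 and -0.34 ± 0.177 for Igf2, with unadjusted p values of 0.27 and 0.083 by edgeR's quasi-likelihood test. Without replicate 3 of TKO they were -0.73 and -0.57, with unadjusted p values of 0.00184 and 0.0011, still not past an adjusted p of 0.05. Without replicate 1 of TKO they were -0.11 and -0.23, and without replicate 2 of TKO -0.17 and -0.25, so the size of both rested on which TKO libraries were kept. In Igf2, 65.5% of the exon length is shared with other annotated genes, including a gene model on the same strand, and counts there depend on how shared reads were assigned.

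The Kcnq1ot1 cluster did not share a direction. Kcnq1ot1, the paternally expressed antisense RNA that silences its neighbours, was at 331, 164 and 290 CPM in Ctrl and 302, 181 and 153 CPM in TKO, a log2 fold change of -0.31 ± 0.296. Of the maternally expressed genes it controls, Cdkn1c was at 70.8, 78.5 and 77.3 CPM in Ctrl and 50.2, 67.7 and 85.9 CPM in TKO, and Slc22a18, a transporter gene, had a log2 fold change of 0.13 ± 0.236. Ascl2, a transcription factor of placental progenitors, was at 3.01, 1.27 and 1.9 CPM in Ctrl and 0.909, 0.787 and 2 CPM in TKO, a log2 fold change of -0.74 ± 0.479 (unadjusted p of 0.154 by edgeR's quasi-likelihood test). With a library left out, Kcnq1ot1 ran from -0.10 without replicate 1 of Ctrl to -0.65 without replicate 1 of TKO, where its unadjusted p was 0.039 by edgeR's quasi-likelihood test, and Ascl2 from -0.36 without replicate 1 of Ctrl to -1.28 without replicate 3 of TKO, where it was 0.0254. Phlda2 was the 1 gene of the 5 with an unadjusted p under 0.05.

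In the Dlk1-Meg3 cluster the spread among Ctrl libraries exceeded any difference between the groups. Dlk1, a paternally expressed transmembrane regulator of Notch signalling and of progenitors, was at 8.03, 34 and 25.1 CPM in Ctrl and 17.3, 29.9 and 19.4 CPM in TKO, with a log2 fold change of -0.01 ± 0.439. Meg3, the maternally expressed noncoding RNA of the cluster, was at 3.91, 9.67 and 12 CPM in Ctrl and 8.37, 13.7 and 8.81 CPM in TKO. Rian, a host of small nucleolar RNAs, and Mirg, a host of microRNAs, had the same lowest library, at 7.51 and 1.37 CPM. Replicate 1 of Ctrl was thus the lowest of 6 in all 4 tested genes, and it was also lowest in the summed fibroblast markers, at 1750 CPM. Over the 6 libraries Pearson's r with the log2 fibroblast sum was 0.92 for Dlk1 (rho = 0.83) and 0.93 for Rian (rho = 0.83), with exact permutation p values of 0.0181 and 0.0153 for r and 0.0583 for each rho. For Meg3 and Mirg r was 0.79 and 0.85 and rho 0.60 and 0.43, with exact permutation p values of 0.0917 and 0.0792 for r. Outside the cluster, Nespas (r = -0.89) and Rasgrf1 (r = 0.88) had exact permutation p values of 0.0333 and 0.0361. Over the 38 members compared in this way, the smallest adjusted p for r was 0.343, for Dlk1, Rian, Nespas and Rasgrf1. Leaving out the 2 libraries farthest from the median fibroblast sum lowered r to 0.26 for Dlk1 and 0.21 for Rian, so the relation rested on those libraries, and the part of fibroblasts in it was not tested.

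**Figure D4:**
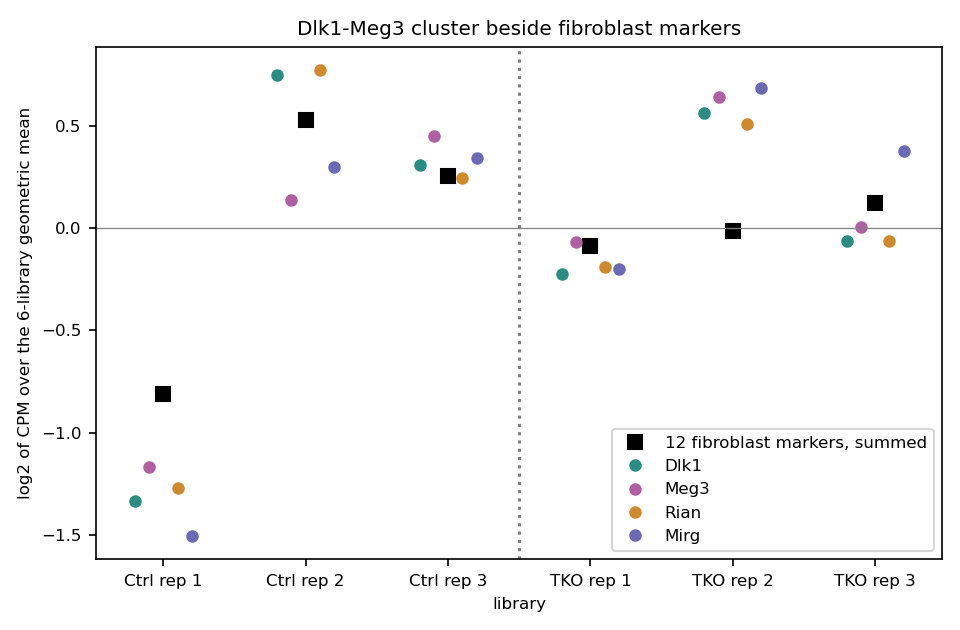
Log2 of CPM over the geometric mean of the 6 libraries for Dlk1, Meg3, Rian and Mirg (circles) and for the sum of 12 fibroblast markers (squares), by library. Replicate 1 of Ctrl is the lowest point in all 5 series.

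The Snrpn-Ube3a cluster, whose human counterpart is lost in Prader-Willi and Angelman syndromes, held Magel2 as its 1 gene with an unadjusted p under 0.05. Ndn, a MAGE family gene next to Magel2, was at 3.75, 7.43 and 5.45 CPM in Ctrl and 6.11, 9.02 and 4.98 CPM in TKO, and Snrpn, a splicing protein, at 3.79, 3.73 and 2.24 CPM in Ctrl and 3.02, 2.66 and 2.1 CPM in TKO. Their log2 fold changes of 0.27 ± 0.32 and -0.33 ± 0.324 pointed in opposite directions and did not pass. Ube3a, a ubiquitin ligase imprinted in neurons, had a log2 fold change of 0.10 ± 0.247.

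In the Peg10-Sgce cluster, Peg10, a retrotransposon-derived gene needed in the placenta, was at 13.7, 20.2 and 21.2 CPM in Ctrl and 21.9, 25.9 and 22.9 CPM in TKO. Its groups did not overlap, but the log2 fold change of 0.36 ± 0.189 did not pass (unadjusted p of 0.0872 by edgeR's quasi-likelihood test). By the same test that p was 0.0414 with a replicate block, and the log2 fold change was 0.19 without replicate 1 of Ctrl. Sgce, a sarcoglycan that shares its promoter region with Peg10, had a log2 fold change of -0.13 ± 0.23, and Asb4 one of 0.19 ± 0.513 at under 1 CPM. Mest, a paternally expressed hydrolase gene of mesodermal tissue, was at 23.5, 51.8 and 57.7 CPM in Ctrl and 36.1, 96.7 and 64.5 CPM in TKO, with overlapping groups and a log2 fold change of 0.57 ± 0.389, which ran from 0.18 without replicate 2 of TKO to 0.85 without replicate 1 of TKO. Its unadjusted p by edgeR's quasi-likelihood test was 0.178, and it was 0.0375 without replicate 1 of TKO and 0.00728 with a replicate block. Copg2, which overlaps Mest on the other strand and encodes a coat protein subunit, had -0.10 ± 0.136. Other genes overlap 47.7% of the exon length of Mest and 34.5% of that of Copg2.

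None of the remaining genes had an unadjusted p under 0.05. Grb10 was at 267, 247 and 253 CPM in Ctrl and 287, 275 and 275 CPM in TKO, groups that did not overlap although the log2 fold change was only 0.13 ± 0.123 (unadjusted p of 0.333 by edgeR's quasi-likelihood test). Airn, the antisense RNA of the Igf2r locus, had a log2 fold change of 0.24 ± 0.27, in the same direction as Igf2r, although Airn silences Igf2r on the paternal chromosome. Gnas and its antisense RNA Nespas, listed in the annotation as Gnasas1, had -0.02 ± 0.148 and 0.03 ± 0.337. Impact, a translation regulator, Zdbf2, a growth-promoting gene, and Nap1l5, a nucleosome assembly protein, had 0.30 ± 0.183, 0.34 ± 0.235 and 0.33 ± 0.477. Inpp5f, a phosphoinositide phosphatase, Rasgrf1, a Ras exchange factor, Peg13, a noncoding RNA, and Trappc9, its host gene, lay between -0.18 and 0.01. Without replicate 3 of TKO, Impact was at 0.48 and Zdbf2 at 0.53, with unadjusted p values of 0.00577 and 0.0291 by edgeR's quasi-likelihood test. Among the members, other annotated genes also overlap 29% of the exon length of Cdkn1c, 28.5% of Ube3a and 27.4% of Peg13. For Inpp5f, Nespas, Snrpn and Blcap the overlap is 24.6%, 22.1%, 19.3% and 15.7%. Counts there depend on how shared reads were assigned.

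Cluster mates were then compared by direction and by library. Of 11 clusters with at least 2 tested genes, 5 had log2 fold changes of 1 sign, the Nnat, Peg3 and Igf2r-Airn clusters above 0 and the Igf2-H19 and Peg13 clusters below 0. Of the 11 clusters 6 had only 2 tested genes, as had 4 of the 5, and genes of a pair can share a sign without moving together, so the count is a description only. Across the 6 libraries, the 34 pairs of cluster mates had a median Pearson's r of log2 CPM of 0.36, with 24 pairs above 0, beside a median of 0.08 over the 669 pairs of members from different clusters. By an exact two-sided permutation test of 720 pairings, 11 of 34 pairs (32.4%) had a p under 0.05, beside 74 of the 669 pairs from different clusters (11.1%). Of the 11, 9 had r above 0 and 2 had r below 0, Phlda2 with Ascl2 (-0.81) and Magel2 with Snrpn (-0.85). All 6 pairs of the Dlk1-Meg3 cluster, whose genes were lowest in the same Ctrl library, were among the 11, and the other 10 clusters gave 5 of 28 pairs (17.9%), both negative pairs included. The pairs share libraries and genes, and the difference between the shares was not tested. An adjusted p under 0.05 was reached by 2 pairs, Peg3 with Zim1 (r = 0.98, rho = 1) and Rian with Dlk1 (r = 0.999, rho = 1). For both, the exact permutation p for r was 0.00139, the smallest that 720 pairings can give, with an adjusted p of 0.0236 over the 34 pairs, and the p for rho was 0.00278, adjusted 0.0472. Without the 2 libraries farthest from the median of the first-named gene, r was 0.95 and 0.998. The 6 libraries thus had the same order in both genes of each pair.

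The other pairs differed by cluster. All 6 pairs of the Dlk1-Meg3 cluster had r from 0.90 to 0.999, and all 3 pairs of the Peg3 cluster from 0.81 to 0.98, and both clusters hold genes of opposite parental expression. In each pair the 2 libraries farthest from the median of the first-named gene were then left out. Without them r fell to 0.44, 0.56 and 0.53 for Meg3 with Rian, Mirg and Dlk1. It fell to 0.16 for Mirg with Dlk1 and to 0.39 for Peg3 with Usp29. It was 0.86 for Rian with Mirg and 0.79 for Usp29 with Zim1. Leaving out the libraries farthest from the median of the other gene was not tried, so these values hold for this choice only. H19 and Igf2 had r = 0.92 (exact permutation p = 0.0417, adjusted 0.133), but rho was 0.60. Without the 2 libraries farthest from the median of H19, r fell to -0.28, so that relation rested on those libraries. In the Kcnq1ot1 cluster r ran from -0.81 to 0.71 over 10 pairs and in the Snrpn-Ube3a cluster from -0.85 to 0.81 over 6, while Gnas and Nespas had -0.81. Libraries of both groups enter each r, so a difference between the groups is part of it, and correlations within the groups were not tested.

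By parental allele, the 17 tested maternally expressed genes had a median log2 fold change of 0.10, with 10 above 0 and 3 at an unadjusted p under 0.05 (Phlda2, Zim1 and Igf2r), and this median was -0.03 without replicate 1 of Ctrl. The 21 tested paternally expressed genes had a median of 0.27, with 14 above 0 and 5 at that threshold, and this median was 0.17 without replicate 1 of TKO and 0.42 without replicate 2 of Ctrl. With genes of tissue-dependent imprinting set apart, the medians were close, at 0.27 for 9 maternally and 0.30 for 19 paternally expressed genes. The tissue-dependent genes, 8 maternally and 2 paternally expressed, had medians of 0.04 and -0.06. Sorted by the allele on which the control region is methylated, the 30 genes under maternally methylated regions had a median of 0.16 and included all 8 genes at an unadjusted p under 0.05. The 7 genes under paternally methylated regions, those of the Igf2-H19, Dlk1-Meg3 and Rasgrf1 clusters, had a median of -0.02 and included none. Among all tested genes 4.06% were higher at that threshold, so none of 7 genes is no departure from the background. The differences between these classes were not tested, and the medians over all tested genes and over the 38 members were 0.01 and 0.13.

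Imprints are kept by a set of chromatin and DNA methylation proteins, and 27 of 28 such genes were tested. At an unadjusted p under 0.05, 4 were higher in TKO (Atf7ip, Dnmt3b, Zfp57 and Tet1) and 1 was lower (Setdb1), where 4.06% and 2.02% of all tested genes were. Atf7ip, the partner that stabilises SETDB1 in the nucleus, was at 167, 177 and 219 CPM in Ctrl and 360, 468 and 385 CPM in TKO, and every TKO library exceeded every Ctrl library. It rose 2.16-fold, a log2 fold change of 1.11 ± 0.164, with an adjusted p of 0.0429 by edgeR's quasi-likelihood test and 3.37e-07 by DESeq2. With edgeR the adjusted p was 0.0575 when 10 counts were required in every library, 0.103 with sex in the model, 0.0915 with the fibroblast sum as a covariate, and between 0.0432 and 0.276 with a library left out, where it was under 0.05 only without replicate 3 of TKO.

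Zfp57, the zinc finger protein that binds methylated control regions, was at 4.35, 6.21 and 6.48 CPM in Ctrl and 8.67, 11.1 and 7.19 CPM in TKO, groups that did not overlap, with a log2 fold change of 0.66 ± 0.254 (unadjusted p of 0.027, adjusted p of 0.73, by edgeR's quasi-likelihood test). Dnmt3b, a de novo DNA methyltransferase, and Tet1, which oxidises methylcytosine, had log2 fold changes of 0.53 ± 0.186 and 0.41 ± 0.174, with unadjusted p values of 0.0179 and 0.039 from the same test. The unadjusted p of Zfp57 was 0.0932, 0.0505 and 0.13 without replicate 1 of Ctrl, replicate 1 of TKO and replicate 2 of TKO, and that of Dnmt3b was 0.0634, 0.0513 and 0.092 without replicate 2 of Ctrl, replicate 1 of TKO and replicate 2 of TKO, so each lost its call in those settings, and the count over the whole list was not taken there. Zfp445, the other zinc finger protein of control regions, and Trim28, the scaffold they share, are named for their role after their values were seen, and had log2 fold changes of -0.07 and -0.09. With a library left out these ran from -0.31 to 0.28 for Zfp445 and from -0.17 to 0.01 for Trim28, so both changed sign. The median over the list was 0.05. By edgeR's quasi-likelihood test Atf7ip was the 1 gene of the list past the adjusted threshold, and by DESeq2 on the same genes Setdb1 passed it too, as given above.

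**Figure D5:**
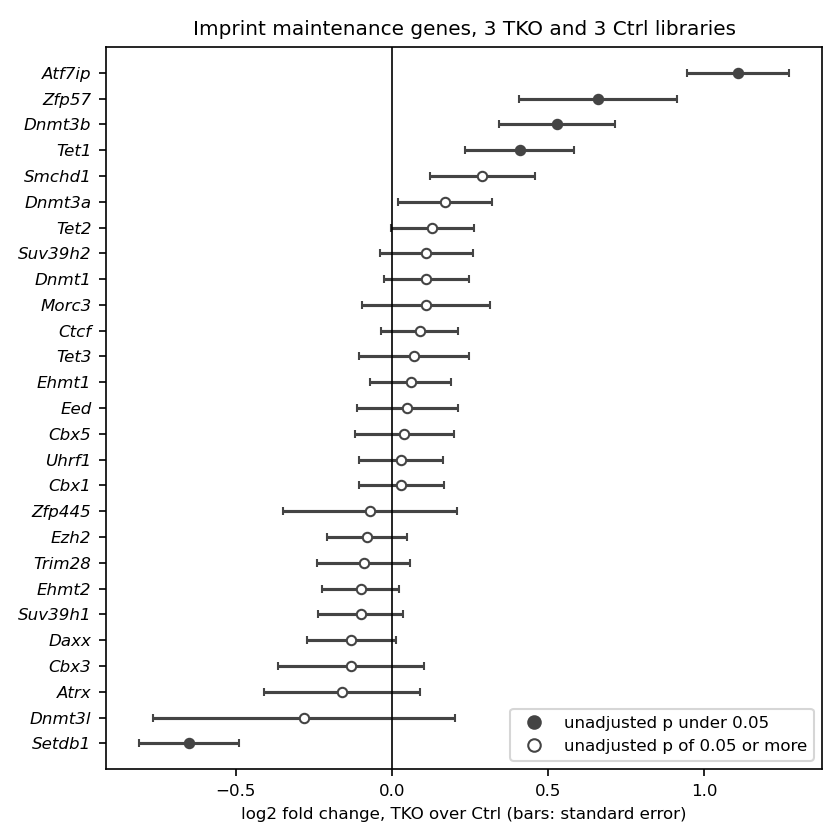
Log2 fold change of TKO over Ctrl with its standard error for the 27 tested imprint maintenance genes, ordered by value, with filled points at an unadjusted p under 0.05. Atf7ip is at the top at 1.11 and Setdb1 at the bottom at -0.65.

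A further list of 39 genes imprinted in some tissues, many only in placenta or brain, gave 33 tested genes. Of these, 1 was higher in TKO at an unadjusted p under 0.05 and none was lower, with a median log2 fold change of -0.01, beside 4.06% and 2.02% of all tested genes, so the count is no more than the background. In 2 genes, Dio3 and Htr2a, every TKO library lay below every Ctrl library, where 5.11% of all genes did, and in 1, Ago2, every TKO library lay above, where 6.35% did. The gene higher in TKO was Ago2, an Argonaute protein of the Peg13 cluster, at 310, 239 and 356 CPM in Ctrl and 398, 384 and 407 CPM in TKO, a log2 fold change of 0.40 ± 0.165 (unadjusted p of 0.0378, adjusted p of 0.782, by edgeR's quasi-likelihood test). In its cluster Peg13 and Trappc9 had -0.18 ± 0.176 and -0.08 ± 0.146.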

How the data were processed

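Bulk RNA-seq of 3 Ctrl and 3 TKO samples of sorted E16.5 basal cells was used, grouped by the sample titles. The authors trimmed the reads (fastp), mapped them to the genome (STAR) and deposited unnormalized gene-level counts. Ribosomal RNA was depleted. The counting program and its strand setting are not given in the sources used here, and the submitters' notes name build GRCm38 while the methods name GRCm39. The members and gene lists were chosen with earlier results of these data known. Every member is named. Of the maintenance and further imprinted lists, genes at an unadjusted p under 0.05 were named, and of each cell type list the most abundant gene and genes at 0. Other markers were named after their values were seen.

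Symbols and exon lengths came from GENCODE vM39 (51477 of 55536 identifiers matched, holding 86.4% to 94.1% of counts), and gene spans and promoters from RefSeq GRCm38.p6. Genes kept by filterByExpr (minimum count 10, minimum total 15) were TMM-normalized and tested on the counts with edgeR 4.0.16 (glmQLFit robust, glmQLFTest, two-sided), in R 4.3.3, with Benjamini-Hochberg adjustment over 20622 genes. CPM used TMM library sizes. DESeq2 1.42.0, RLE factors, other filters, sex, a replicate block, a fibroblast covariate added after seeing the data, and leaving out each library were alternatives. Correlations used log2 CPM with a prior count of 2 (scipy 1.17.1). The edgeR step was tested on simulated data. Each library was taken as 1 embryo. The controls were Cre-negative littermates by the study's account, but the labels do not tie embryos to litters, so p-values measure only the spread between these samples. Total counts of 102159175 to 136515436 per library put 3 counts at 0.0232 to 0.0303 CPM.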

Additional observations from a re-analysis of the deposited data

How the results depend on the processing

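Over the 9 alternatives that keep all libraries, 7 of 342 member fold changes reversed, and with a library left out 26 of 228, so that 14 of the 38 members changed sign in at least 1 alternative and the other 24 in none. The reversals with all libraries were small, the log2 fold change being -0.02 for Inpp5f without a low-count filter, 0.16, 0.11 and 0.19 for Rian and 0.17, 0.12 and 0.20 for Dlk1 with a replicate block, sex and the fibroblast covariate. Leaving out single libraries gave -0.08 to 0.60 for Meg3, -0.09 to 0.42 for Ube3a, -0.10 to 0.13 for Inpp5f, -0.41 to 0.44 for Rian, -0.41 to 0.42 for Dlk1, -0.01 to 0.39 for Airn, -0.27 to 0.11 for Sgce, -0.44 to 0.30 for Rasgrf1, -0.10 to 0.05 for Gnas, -0.27 to 0.48 for Nespas, -0.36 to 0.02 for Cdkn1c, -0.14 to 0.39 for Asb4, -0.00 to 0.54 for Ndn and -0.15 to 0.28 for Slc22a18. The count of members past the adjusted threshold was 1, Nnat, with DESeq2 on the same genes, with DESeq2's default workflow and without a low-count filter, and 0 elsewhere. At an adjusted p under 0.1 the test as reported still gave 0, but Zim1 was at 0.0509 without a low-count filter and Igf2 at 0.093 without replicate 3 of TKO. Members higher in TKO at an unadjusted p under 0.05 numbered 4 with sex in the model and 1 to 9 with a library left out. Members lower in TKO numbered 3 without a low-count filter (H19, Igf2 and Kcnq1ot1), a setting that moved the median of all genes to -0.11, and 0 to 4 with a library left out, the 4 being H19, Igf2, Cdkn1c and Ascl2 without replicate 3 of TKO. The median of members ran from 0.06 to 0.30 with a library left out, the highest without replicate 2 of Ctrl, that of the maternally expressed genes from -0.03 to 0.12 and that of the paternally expressed genes from 0.17 to 0.42. Clusters of 1 direction numbered 5 to 7. Correlations of deviations from the group means between libraries of 1 replicate number were 0.168, 0.0873 and 0.127, and each library correlated best with its own number. In the submitters' sample codes, the Ctrl and TKO libraries of 1 replicate number also carry consecutive running numbers. Both are hints only. The study took Cre-negative littermates as its controls, but no source used here says which embryos shared a litter, so the numbers were not taken as pairs. With a replicate block 45 of all genes passed in place of 27, and the members gave 0 past the adjusted threshold, 9 higher and 1 lower at an unadjusted p under 0.05. By edgeR with the block, that p was 0.00728 for Mest, 0.0414 for Peg10 and 0.0235 for Igf2, which gained the call, and 0.0514 for Igf2r, which lost it. In all genes, 259 passed with DESeq2, 264 in its default workflow, 349 without a filter, 9 with 10 counts in every library and 6 to 64 with a library left out. The causes of these changes were not tested.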
